A study of Mus musculus with 12 samples.

Results

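The 9 genes described here, Foxo3, Tsc1, Tsc2, Mtor, Rptor, Pdpk1, Akt1, Pik3ca and Cdkn1b, encode parts of the PI3K, FOXO3 and mTOR signalling that controls whether an oocyte stays dormant. They were chosen by symbol for that role, and each matched 1 of the 55573 genes counted in every library. In the resting oocyte of a primordial follicle, KIT and other receptors activate PI3K, whose lipid product recruits PDK1 and AKT to the membrane. AKT phosphorylates FOXO3, which then leaves the nucleus and no longer holds the follicle dormant. AKT also relieves the restraint that the TSC1 and TSC2 complex places on mTORC1 through RHEB. The oocytes measured here were fully grown and had left that resting stage.

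The series compares numbers of amplification cycles, and fractions of a single oocyte, as input for RNA sequencing. All oocytes came from 1 healthy B6D2F1 female aged 12 weeks and were in the GV (germinal vesicle) stage, before meiosis resumes. Of 8 oocytes, 6 were used whole, giving 2 libraries at each of 10, 14 and 18 cycles. Lysates of the remaining 2 were diluted to 1/2, 1/4 and 1/8 of an oocyte, giving 2 libraries per fraction, all amplified for 18 cycles. Poly(A) RNA was sequenced, and every whole or diluted sample received the same amount of ERCC RNA, a mix of synthetic spike-in molecules. The p-values below measure the spread between oocytes of 1 animal, or between diluted lysates, and say nothing about other animals. Whether fractions with the same replicate number came from the same oocyte is not stated.

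Gene counts per library were 11597144 and 9189672 (10 cycles), 12349577 and 13806199 (14), and 3017069 and 1706478 (18) for whole oocytes. The fractions held 4024670 and 3598549 (1/2), 4027907 and 5049518 (1/4), and 11404262 and 1702062 (1/8). The whole oocytes at 18 cycles stood apart, with 1611 and 1474 ERCC counts, against 25528 to 39046 in the other whole oocytes and 9167 to 231470 in the fractions. All 12 oocyte markers, among them Zp3 and Gdf9, had counts in every library. Their summed level was 8816 and 7423 CPM (counts per 1000000 gene counts) in the whole oocytes at 18 cycles, and 28570.4 to 32717 CPM in the whole oocytes at 10 and 14 cycles. The fractions had summed oocyte markers of 10702 and 10616 CPM (1/2), 15919 and 17187 (1/4), and 25040.0 and 24188 (1/8). Cumulus and granulosa markers summed to 25.8 to 149 CPM over the 12 libraries, theca and stroma markers to 0 to 10.4, and blood markers to 0 to 4.16. The libraries at 18 cycles are the controls of all 3 fraction comparisons, and the 10-cycle libraries are the controls of both cycle comparisons, so comparisons that share controls are not independent. Oocyte, preparation, cycle number and depth cannot be told apart.

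Every library held counts of all 9 genes, from 17 (Rptor in 1/8, replicate 2) to 8456 (Foxo3). Per kilobase of exon, Foxo3 was the most abundant, with a mean of 92.8 CPM per kb over the 12 libraries, rank 589 of the 30169 genes with a count. Pdpk1 followed at 18.7 CPM per kb (rank 3259), Akt1 at 9.74 (5152), Cdkn1b at 7.39 (5978) and Tsc1 at 6.74 (6271). Lower in that order came Pik3ca at 5.45 CPM per kb (rank 6953), Mtor at 5.21 (7097), Tsc2 at 2.63 (9267) and Rptor at 2.29 (9699). This order of means over all libraries did not hold in every group, and Pik3ca was above Mtor at 10 cycles (9.03 and 6.48 CPM per kb) but below it at 18 (3.19 and 4.07). The genes lie on 8 chromosomes, with only Pdpk1 and Tsc2 on the same one, 444891 bp apart on chromosome 17. Exons of Tsc2 share 693 bp (7.20% of its exon length) with Pkd1 on the opposite strand, and exons of Rptor share 84 bp (0.624%) with its antisense gene Rptoros. The kit does not mark strand, and only 6.90% to 10.8% of reads lay on no feature, where counting a single strand would leave about 1/2 of the reads. The counts thus take no strand into account, and reads in the shared stretches may be missing or belong to either gene. No other gene overlaps the exons of the remaining 7. Summed, the 9 genes made up 1319 and 1189.6 CPM (10 cycles), 1184 and 1249 (14), and 1381 and 1093 (18) of whole oocytes. The same sum was 867 and 1249 CPM (1/2), 1569.8 and 1537 (1/4), and 1043 and 944 (1/8). The highest sums were those of the 1/4 fraction, of which Foxo3 alone made up 1030.3 and 1023 CPM, and the lowest was replicate 1 of the 1/2 fraction.

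**Figure D1:**
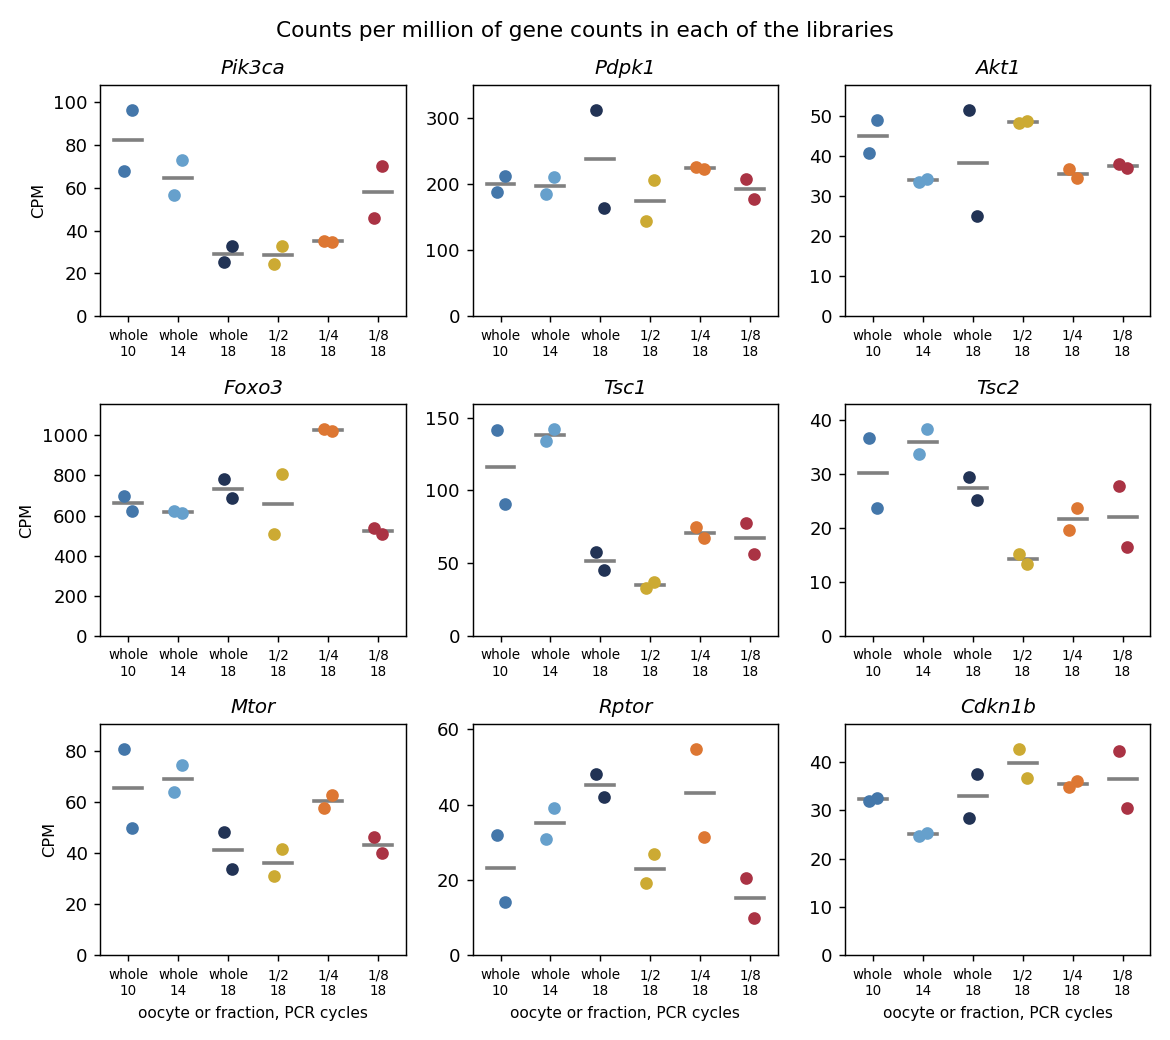
CPM of each of the 9 genes in the 12 libraries, with replicate 1 left, replicate 2 right and a grey line at the group mean.

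All 9 genes passed the expression filter and were tested in every comparison. Between 14 and 10 cycles, the edgeR quasi-likelihood test (BH adjusted p under 0.01) called 0 of the 9 lower and 0 higher, against 0% and 0% of 17532 genes. In this comparison 0 of the 9, and 513 of all genes, had an unadjusted p under 0.05, and DESeq2 called 0 of the 9. Between 18 and 10 cycles, the same test called 1 of the 9 lower and 0 higher, against 10.8% and 12.3% of genes; 4 of the 9, and 7989 of all genes, had an unadjusted p under 0.05. DESeq2 called 2 of the 9 lower and 1 higher, and 2432 and 2732 of all genes. With ERCC size factors in this comparison, edgeR called 0 of the 9 lower and 8 higher, against 0 and 8348 of the 17532 genes. These 8 were Rptor (3.55), Pdpk1 (2.82), Foxo3 (2.67), Cdkn1b (2.48), Tsc2 (2.42), Akt1 (2.35), Mtor (1.93) and Tsc1 (1.40). For fractions against whole oocytes at 18 cycles, 14788 genes were tested after scaling by median ratios over genes. In the 1/2 fraction edgeR called 0 of the 9 lower and 0 higher, against 0.0406% and 0.0811% of genes; 2 of the 9, and 1943 of all genes, had an unadjusted p under 0.05, and DESeq2 called 0 of the 9. In the 1/4 fraction edgeR called 0 lower and 0 higher, against 0.426% and 0.0338% of genes. There 0 of the 9, and 2331 of all genes, had an unadjusted p under 0.05, and DESeq2 called 0 of the 9. In the 1/8 fraction edgeR called 1 of the 9 lower and 0 higher, against 8.69% and 7.06% of genes; 3 of the 9, and 5804 of all genes, had an unadjusted p under 0.05. DESeq2 called 1 of the 9 lower and 0 higher, and 1581 and 1252 of all genes. Scaled by ERCC molecules instead, edgeR and DESeq2 each called all 9 lower and 0 higher in every fraction. On that scale edgeR called 52.0% of all genes lower and 0% higher in 1/2, 69.7% and 0% in 1/4, and 87.5% and 0% in 1/8. These shares depended on single libraries. With 1 library left out, the median log2 fold change of all genes ranged from −2.34 to −1.39 in 1/2. It ranged from −3.04 to −2.11 in 1/4 and from −5.25 to −4.26 in 1/8. The lower ends came without 18-cycle replicate 2 and the upper ends without 18-cycle replicate 1. The ERCC scale compares amounts per library, and median ratios compare each gene with the other genes of its library.

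Pik3ca encodes p110 alpha, a catalytic subunit of PI3K. Its level in whole oocytes was 67.7 and 96.4 CPM (10 cycles), 56.4 and 72.7 (14), and 25.2 and 32.8 (18). In the fractions it was 24.6 and 32.8 CPM (1/2), 35.3 and 34.7 (1/4), and 45.8 and 69.9 (1/8). Both 18-cycle whole oocytes and the 1/2 fraction lay below every other library, the 10- and 14-cycle libraries overlapped, and the 1/8 fraction overlapped the 14-cycle libraries. Pik3ca fell between 10 and 18 cycles by a fitted fold of 2.39, with mean normalised counts (± SD, n = 2) of 520 ± 148 and 222 ± 60.1, a log2 fold change of −1.26 (SE 0.29) and an adjusted p of 0.0072 (edgeR quasi-likelihood test, BH adjusted). With ERCC size factors the direction of Pik3ca was reversed (0.91) and not called. The median log2 fold change of all genes on the median ratio scale was −0.29, and 29.2% of genes had a lower value than Pik3ca. That call depended on single libraries. In the edgeR quasi-likelihood test (BH adjusted) it was lost without 10-cycle replicate 1 (adjusted p = 0.0112) or replicate 2 (0.0672), without 14-cycle replicate 1 (0.0104) or replicate 2 (0.0115), and without 18-cycle replicate 1 (0.0656). The log2 fold changes in these fits, in the same order, were −1.52, −0.93, −1.25, −1.25 and −0.96. Between 10 and 14 cycles its log2 fold change was −0.39. Against whole oocytes at 18 cycles, the log2 fold change of Pik3ca on the median ratio scale was −0.05 in 1/2, 0.14 in 1/4 and 0.78 (SE 0.37, edgeR quasi-likelihood test, BH adjusted p = 0.118) in 1/8. Against whole oocytes at 10 cycles Pik3ca was called lower in 1/2 (−1.29, edgeR quasi-likelihood test, BH adjusted p = 0.0062). On that reference it was −1.11 in 1/4 and −0.47 in 1/8, not called.

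Pdpk1 encodes PDK1, the kinase that activates AKT. Whole oocytes held 188 and 212 CPM (10 cycles), 185 and 209.8 (14), and 312 and 163 (18). Fractions held 143 and 206 CPM (1/2), 226 and 223 (1/4), and 207 and 177 (1/8). The 2 whole oocytes at 18 cycles contained both the highest value of Pdpk1 and, apart from replicate 1 of the 1/2 fraction, the lowest. On the median ratio scale the difference in Pdpk1 between 18 and 10 cycles was not called (log2 fold change 0.49, SE 0.25, edgeR quasi-likelihood test, BH adjusted p = 0.153), but without 18-cycle replicate 2 it was (0.85, adjusted p = 0.00738). Its log2 fold change was −0.06 between 14 and 10 cycles, and −0.48, −0.21 and −0.49 in 1/2, 1/4 and 1/8 against whole oocytes at 18 cycles.

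Akt1 encodes a kinase that phosphorylates FOXO3 and TSC2. Its values were 41.0 and 49.2 CPM (10 cycles), 33.7 and 34.3 (14), and 51.7 and 25.2 (18) in whole oocytes, with the highest and the lowest of the 12 both at 18 cycles. Fraction libraries had 48.5 and 48.9 CPM (1/2), 36.7 and 34.7 (1/4), and 38.1 and 37.0 (1/8). The 14-cycle libraries were below all groups except 18 cycles, whose replicates span the whole range of this gene. No comparison of Akt1 was called on the median ratio scale. The log2 fold change was −0.44 for 14 against 10 cycles, 0.04 (SE 0.29) for 18 against 10, and 0.30, −0.25 and −0.23 for 1/2, 1/4 and 1/8 against whole oocytes.

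FOXO3 is the transcription factor that keeps the primordial oocyte dormant while it is nuclear; RNA levels do not show where the protein is. Foxo3 was measured at 699.6 and 621 CPM (10 cycles), 621 and 612 (14), and 779.9 and 688 (18) in whole oocytes. The 1/2 fraction held 510.1 and 805 CPM, the 1/4 fraction 1030.3 and 1023, and the 1/8 fraction 537 and 507. Both libraries of the 1/4 fraction were above all others, the 1/8 libraries were below every library except replicate 1 of 1/2, and the replicates of 1/2 lay far apart. Over the 12 libraries the highest value of Foxo3 was 2.03 times the lowest, the second smallest span of the 9 genes after Cdkn1b (1.74). At 18 against 10 cycles Foxo3 was called higher with ERCC size factors, as above, but not on the median ratio scale, with a log2 fold change of 0.42 (SE 0.18, edgeR quasi-likelihood test, BH adjusted p = 0.102). For 14 against 10 cycles the log2 fold change was −0.13. In the 1/8 fraction Foxo3 was −0.69 (SE 0.27) against whole oocytes and not called (edgeR quasi-likelihood test, BH adjusted p = 0.0638). The other fractions gave log2 fold changes of −0.20 in 1/2 and 0.35 in 1/4, also not called.

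Tsc1 encodes hamartin, which stabilises the complex that inactivates RHEB. Levels in whole oocytes were 141 and 90.3 CPM (10 cycles), 134 and 142 (14), and 57.7 and 45.1 (18). Levels in the fractions were 33.0 and 37.2 CPM (1/2), 74.7 and 67.1 (1/4), and 77.8 and 56.4 (1/8). Whole oocytes at 10 and 14 cycles were above all 18-cycle libraries, whole or diluted, and the 1/2 fraction was below all others. Tsc1 was nevertheless not called between 18 and 10 cycles (log2 fold change −0.90, SE 0.23, edgeR quasi-likelihood test, BH adjusted p = 0.0127). However, DESeq2, TMM scaling, the fit without a filter and the fit with the replicate number as a block called Tsc1 lower. With 1 library left out it ranged from −0.59 to −1.16, without a call. With ERCC size factors Tsc1 was higher at 18 cycles and called (1.40, edgeR quasi-likelihood test, BH adjusted p = 0.00735). For 14 against 10 cycles its log2 fold change was 0.23. Against whole oocytes at 18 cycles Tsc1 had log2 fold changes of −0.59 in 1/2, 0.33 in 1/4 and 0.20 in 1/8, none of them called on the median ratio scale. Against whole oocytes at 10 cycles the 1/2 fraction was called lower for Tsc1 (−1.47, edgeR quasi-likelihood test, BH adjusted p = 0.000802).

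Tsc2 encodes tuberin, the subunit of that complex that acts on RHEB. It had 36.7 and 23.7 CPM (10 cycles), 33.7 and 38.3 (14), and 29.5 and 25.2 (18) in whole oocytes, and the 3 groups could be ordered only for 14 above 18 cycles. Diluted lysates held 15.2 and 13.3 CPM (1/2), 19.6 and 23.8 (1/4), and 27.8 and 16.5 (1/8). The 1/2 fraction was below every other library. Its log2 fold change against whole oocytes was −0.97 (SE 0.41) and was not called (edgeR quasi-likelihood test, BH adjusted p = 0.291). Tsc2 was at −0.48 and −0.47 log2 units in 1/4 and 1/8, 0.22 between 14 and 10 cycles and 0.13 between 18 and 10 cycles, without a call on the median ratio scale. Per kilobase, Tsc1 exceeded Tsc2 in all 12 libraries. The ratio of Tsc1 to Tsc2 CPM per kb was 3.13 and 3.10 (10 cycles), 3.24 and 3.01 (14), and 1.59 and 1.46 (18). For the fractions it was 1.77 and 2.27 (1/2), 3.10 and 2.30 (1/4), and 2.27 and 2.79 (1/8), so the lowest ratios were those of the whole oocytes at 18 cycles.

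Mtor encodes the kinase of both mTOR complexes. Whole oocytes contained 81.0 and 50.1 CPM (10 cycles), 64.0 and 74.7 (14), and 48.4 and 34.0 (18), so that 18 cycles lay below the others. Fractions contained 31.1 and 41.7 CPM (1/2), 57.8 and 63.0 (1/4), and 46.4 and 40.0 (1/8). The 1/4 fraction was above the other fractions and above the whole oocytes at 18 cycles. None of these differences of Mtor was called on the median ratio scale. The log2 fold change was 0.05 for 14 against 10 cycles, −0.39 (SE 0.26, edgeR quasi-likelihood test, BH adjusted p = 0.266) for 18 against 10, and −0.22, 0.41 and −0.12 for 1/2, 1/4 and 1/8 against whole oocytes. With ERCC size factors the direction of Mtor between 18 and 10 cycles was reversed and called (1.93, edgeR quasi-likelihood test, BH adjusted p = 0.0009).

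Rptor encodes RAPTOR, the subunit that defines mTORC1. Its values in whole oocytes were 32.0 and 14.3 CPM (10 cycles), 31.0 and 39.1 (14), and 48.1 and 42.2 (18). Its values in the fractions were 19.1 and 26.96 CPM (1/2), 54.9 and 31.5 (1/4), and 20.5 and 9.99 (1/8). The whole oocytes at 18 cycles were above all libraries except replicate 1 of the 1/4 fraction, and replicate 2 of the 1/8 fraction was the lowest. Rptor had the widest span of the 9 genes, 5.49-fold between the lowest and the highest library. In 1/8 against whole oocytes it fell by a fitted fold of 3.21, with mean normalised counts (± SD, n = 2) of 171 ± 4.30 and 50.4 ± 24.4, a log2 fold change of −1.68 (SE 0.42) and an adjusted p of 0.00467 (edgeR quasi-likelihood test, BH adjusted). Only 11.5% of all genes had a lower log2 fold change there. Omitting a library ended this Rptor call in 3 cases (edgeR quasi-likelihood test, BH adjusted), namely 18-cycle replicate 1 (adjusted p = 0.0286), 18-cycle replicate 2 (0.0159) and 1/8 replicate 2 (0.0472). The log2 fold changes were then −1.67, −1.72 and −1.32. With 1/8 replicate 1 left out, the value was −2.35. With the 10-cycle whole oocytes as the reference, Rptor in 1/8 was at −0.44 and not called (edgeR quasi-likelihood test, BH adjusted p = 0.783). Between 18 and 10 cycles Rptor was at 1.24 (SE 0.35, edgeR quasi-likelihood test, BH adjusted p = 0.0175), which was not called, while DESeq2, the fit without a filter and the fit with ERCC size factors called it higher. With 1 library left out it ranged from 0.80 (without 10-cycle replicate 2) to 1.89 (without 10-cycle replicate 1), and only the latter was called (edgeR quasi-likelihood test, BH adjusted p = 0.00635). The log2 fold changes of Rptor were 0.57 for 14 against 10 cycles, −1.01 (SE 0.41, edgeR quasi-likelihood test, BH adjusted p = 0.262) in 1/2 and −0.19 in 1/4. Per kilobase, the ratio of Mtor to Rptor was 3.37 and 4.68 (10 cycles), 2.75 and 2.54 (14), and 1.34 and 1.07 (18). In diluted lysates this ratio was 2.16 and 2.06 (1/2), 1.40 and 2.67 (1/4), and 3.01 and 5.33 (1/8). Mtor was thus above Rptor per kilobase in all 12 libraries, least so in the whole oocytes at 18 cycles.

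Cdkn1b encodes p27, an inhibitor of cyclin-dependent kinases. Whole oocytes gave 32.0 and 32.5 CPM (10 cycles), 24.6 and 25.4 (14), and 28.5 and 37.5 (18). Fractions gave 42.7 and 36.7 CPM (1/2), 34.8 and 36.0 (1/4), and 42.3 and 30.6 (1/8). The 14-cycle libraries were below all others, and the remaining groups largely overlapped. Cdkn1b was not called in any comparison on the median ratio scale, with log2 fold changes of −0.40 for 14 against 10 cycles and 0.29 (SE 0.27) for 18 against 10. In 1/2, 1/4 and 1/8 the values were 0.23, −0.03 and −0.04.

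**Figure D2:**
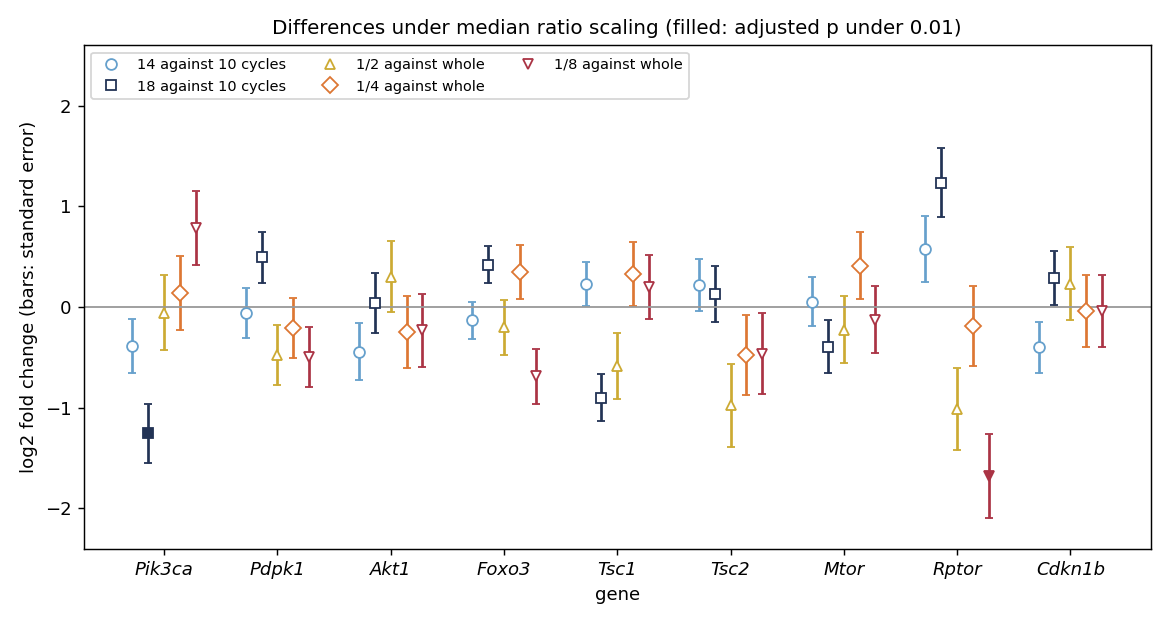
Log2 fold change of each gene in the cycle and fraction comparisons, with bars of 1 standard error and filled points at an adjusted p under 0.01.

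Scaled by ERCC, each of the 9 genes was lower in every fraction, and no fraction library of any of the 9 reached either whole oocyte at 18 cycles. The libraries as wholes differed in the same way. Summed over all genes, whole oocytes at 18 cycles had 1873 and 1158 gene counts per ERCC count, and the fractions 46.5 to 439. The share of all genes without overlap was not computed. The adjusted p of the 9 genes ran from 3.35e-05 to 0.00477 in 1/2, 9.54e-07 to 7.66e-05 in 1/4 and 1.98e-13 to 3.37e-09 in 1/8 (edgeR quasi-likelihood test, BH adjusted). Foxo3 stood at 226 and 223 counts per 1000 ERCC counts (10 cycles), 215 and 217 (14), and 1461 and 796 (18). In the fractions Foxo3 stood at 224 and 277 (1/2), 221 and 178 (1/4), and 26.5 and 23.6 (1/8). Against whole oocytes at 18 cycles the log2 fold change of Foxo3 was −2.24 in 1/2, −2.39 in 1/4 and −5.66 in 1/8. The 1/2 and 1/4 fractions thus had about as much Foxo3 per ERCC count as whole oocytes at 10 and 14 cycles, and only 1/8 lay far below those.

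Rptor showed the largest decrease of the 9 on this scale in 1/8. It had 10.3 and 5.13 counts per 1000 ERCC counts (10 cycles), 10.8 and 13.8 (14), and 90.0 and 48.8 (18). The fractions had 8.40 and 9.27 (1/2), 11.8 and 5.47 (1/4), and 1.01 and 0.465 (1/8). The log2 fold changes of Rptor were −3.04, −2.89 and −6.65 in 1/2, 1/4 and 1/8. Pik3ca showed the smallest decrease in 1/8. Its values were 21.9 and 34.7 counts per 1000 ERCC counts (10 cycles), 19.6 and 25.7 (14), and 47.2 and 38.0 (18). Diluted lysates had 10.8 and 11.3 (1/2), 7.55 and 6.02 (1/4), and 2.26 and 3.25 (1/8), in steps that did not overlap. The log2 fold changes of Pik3ca were −2.02, −2.55 and −4.13.

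Tsc1 per 1000 ERCC counts was 45.7 and 32.5 (10 cycles), 46.5 and 50.2 (14), and 108 and 52.2 (18), and in the fractions 14.5 and 12.8 (1/2), 16.0 and 11.7 (1/4), and 3.83 and 2.62 (1/8). Its log2 fold changes in the 3 fractions were −2.61, −2.42 and −4.78, so that 1/2 and 1/4 overlapped and 1/8 was lowest. Tsc2 was at 11.9 and 8.54 (10 cycles), 11.7 and 13.5 (14), and 55.2 and 29.2 (18), then 6.65 and 4.59 (1/2), 4.20 and 4.13 (1/4), and 1.37 and 0.765 (1/8). With −2.96, −3.24 and −5.43, Tsc2 was lower at each dilution step without overlap. Mtor had 26.2 and 18.0 (10 cycles), 22.2 and 26.4 (14), and 90.6 and 39.3 (18), followed by 13.6 and 14.3 (1/2), 12.4 and 10.9 (1/4), and 2.29 and 1.86 (1/8). For Mtor the log2 fold changes were −2.28, −2.37 and −5.12.

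Pdpk1 reached 60.8 and 76.4 counts per 1000 ERCC counts (10 cycles), 64.1 and 74.2 (14), and 584 and 189 (18), against 62.8 and 70.9 (1/2), 48.3 and 38.7 (1/4), and 10.2 and 8.23 (1/8). Its log2 fold changes in the fractions were −2.59, −3.03 and −5.55. Akt1 reached 13.2 and 17.7 (10 cycles), 11.7 and 12.1 (14), and 96.8 and 29.2 (18), against 21.3 and 16.8 (1/2), 7.87 and 6.02 (1/4), and 1.88 and 1.72 (1/8). For Akt1 they were −1.78, −3.07 and −5.28, each fraction below the one before. Without 18-cycle replicate 1 the decreases in 1/4 and 1/8 were smaller, at −1.91 and −4.13 for Akt1. For Pdpk1 they were then −1.96 and −4.48, and for Mtor −1.60 and −4.36. Cdkn1b was at 10.3 and 11.7 (10 cycles), 8.54 and 8.99 (14), and 53.4 and 43.4 (18), and at 18.8 and 12.6 (1/2), 7.45 and 6.26 (1/4), and 2.08 and 1.42 (1/8). Its decreases, −1.68, −2.72 and −4.94, began with the smallest of the 9 in 1/2. In 1/2 both Akt1 and Cdkn1b were within or above the values of the whole oocytes at 10 and 14 cycles.

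For all 9 genes, both whole oocytes at 18 cycles lay above every whole oocyte at 10 and 14 cycles per ERCC count. The libraries as wholes had the same order. Summed over all genes, there were 1873 and 1158 gene counts per ERCC count at 18 cycles, and 323 to 360 at 10 and 14 cycles. This order is therefore not particular to the 9 genes, and the share of all genes with it was not computed. Dilution with equal recovery would give log2 values of −1, −2 and −3. The medians of the 9 genes were −2.28, −2.72 and −5.28 in 1/2, 1/4 and 1/8, and those of all genes −1.997, −2.69 and −4.92. With whole oocytes at 10 cycles as the reference, the medians of all genes were −0.02, −0.75 and −2.75. On that reference edgeR called 0 of the 9 genes lower in 1/2, 1 (Pik3ca, −1.76, quasi-likelihood test, BH adjusted p = 0.00736) in 1/4 and all 9 in 1/8. Of the genes tested on that reference, 266 were lower and 1161 higher in 1/2, 902 and 144 in 1/4, and 12688 and 0 in 1/8. The size of the ERCC decrease therefore depends on which whole oocytes serve as controls. Without 18-cycle replicate 1, edgeR still called 5 of the 9 and 3081 of all genes lower in 1/2 and lost Mtor, Pdpk1, Akt1 and Cdkn1b, at log2 fold changes of −1.48, −1.49, −0.59 and −1.44. Without replicate 2 of 1/2 it also called 5, with 1930 of all genes against 7697 in the full fit, and lost Mtor, Akt1, Pik3ca and Cdkn1b, at −2.28, −1.59, −2.01 and −1.40, where all libraries gave −2.28, −1.78, −2.02 and −1.68.

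**Figure D3:**
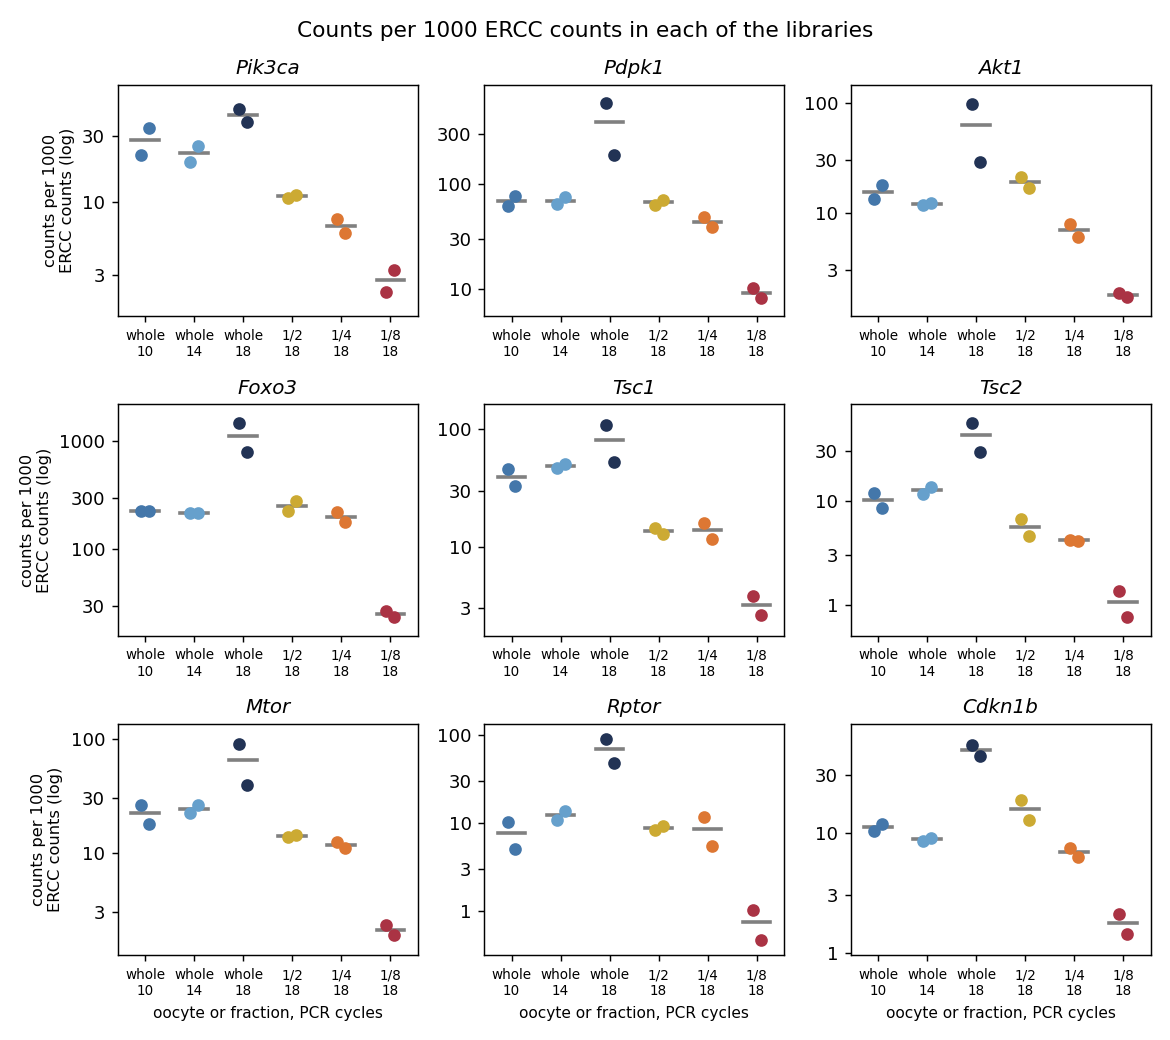
Counts of each gene per 1000 ERCC counts in the 12 libraries on a logarithmic axis, with replicate 1 left, replicate 2 right and a grey line at the group mean.

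Across the 12 libraries, 19 of the 36 pairs of the 9 genes had a positive Pearson correlation of log2(CPM + 1), with a median of 0.0478. The highest was Mtor with Tsc1 (r = 0.892, n = 12), then Tsc1 with Tsc2 (0.835), Mtor with Tsc2 (0.717) and Pik3ca with Tsc1 (0.714), and the lowest Cdkn1b with Tsc1 (−0.664). Rptor had its highest value of these with Foxo3, at 0.676. The points are 6 groups of 2 libraries that share cycle number or input, so these values describe the groups and were not tested. Among 8858 genes with a mean of at least 10 CPM, the profiles closest to Foxo3 were Stk35 (r = 0.951, n = 12), Ppm1h (0.937) and Luc7l2 (0.934). Those closest to Mtor were Amot (0.958), Igsf3 (0.954) and Cnnm2 (0.946).

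A further 83 genes of the pathway, in 11 lists by role, were examined beside the 9. Between 18 and 10 cycles edgeR called 9 of the 79 tested lower (11.4%) and 11 higher (13.9%), near the shares of all genes. With ERCC size factors 0 of all genes were lower in this comparison, so none of these 9 lower calls held on that scale. Called lower and higher were 2 and 1 of 7 ligands, receptors and adaptors, 1 and 0 of 7 other PI3K subunits, 0 and 0 of 6 phosphatases, and 1 and 1 of 6 other AKT kinases and substrates. Among other FOXO factors and targets these were 0 and 2 of 9, in the TSC and RHEB list 0 and 0 of 3, among mTORC1 and mTORC2 subunits 1 and 1 of 6, and among Rag and Ragulator genes 0 and 1 of 10. The mTORC1 outputs had 1 and 1 of 8, LKB1 and AMPK 2 and 2 of 7, and the p27 axis 1 and 2 of 10.

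On the median ratio scale, the largest decreases with a mean of at least 50 normalised counts were in Cdkn1a, Eif4e, Kitl and Prkaa2. Cdkn1a, which encodes p21, the inhibitor related to p27, fell from 102 ± 36.4 to 5.91 ± 5.01 normalised counts (log2 fold change −4.36, edgeR quasi-likelihood test, BH adjusted p = 0.000727), while Cdkn1b was not called. Eif4e, which encodes the cap-binding protein downstream of mTORC1, fell from 751 ± 2.77 to 162 ± 45.1 (−2.25, edgeR quasi-likelihood test, BH adjusted p = 0.000121). Kitl fell from 74.1 ± 9.87 to 17.7 ± 5.02 (−1.99), and Prkaa2 was at −1.53. At 18 cycles Cdkn1a and Kitl lay below 50 normalised counts, so these genes met that minimum through their higher libraries. Kitl is also among the cumulus and granulosa markers, which with Kitl included summed to 138.8 and 83.6 CPM (10 cycles) and 61.6 and 25.8 (18). These markers did not move together. Inha had 34.1 and 0.327 CPM at 10 cycles and 17.2 and 0.586 at 18. Cyp19a1 had 27.5 and 32.6, then 5.97 and 7.62, and Kitl 10.95 and 12.5, then 2.98 and 1.76. The source of the Kitl reads was not tested. Cdkn1c, which encodes p57, rose from 108 ± 41.2 to 1185 ± 476 (3.45, edgeR quasi-likelihood test, BH adjusted p = 0.000109). Foxo1 rose from 2950 ± 496 to 15480 ± 8747 (2.39, edgeR quasi-likelihood test, BH adjusted p = 0.000563), while Foxo3 was not called on this scale. Stk11, which encodes LKB1, rose by 2.37 and Akt1s1, which encodes the mTORC1 inhibitor PRAS40, by 2.06. Exons of Foxo1 share 674 bp with an antisense gene, and Cdkn1c, Cdkn1a, Stk11 and Akt1s1 also overlap other genes, so part of their counts may be missing or belong to those genes.

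Between 14 and 10 cycles edgeR called 0 of 79 of these genes and 0 of all genes. In 1/2 against whole oocytes it called 0 of 74 on the median ratio scale, against 0.0406% of all genes lower and 0.0811% higher. In 1/4 edgeR called 1 of 74 lower (1.35%) and 0 higher, against 0.426% and 0.0338% of all genes. This was Foxo1, at −2.42 (edgeR quasi-likelihood test, BH adjusted p = 0.000791), where Foxo3 was at 0.35. Foxo1 had 1445 ± 41.4 normalised counts in 1/4 and 7726 ± 4235 in whole oocytes at 18 cycles, where it was also called higher than at 10 cycles. In 1/8 edgeR called 9 of 74 lower (12.2%) and 6 higher (8.11%), against 8.69% and 7.06% of all genes. With whole oocytes at 10 cycles as the reference 0 of all genes were called in 1/8 on the median ratio scale, so none of these calls held there. Against whole oocytes at 18 cycles, the largest called decreases in 1/8 with a mean of at least 50 normalised counts were Cdkn1c at −2.99, Foxo1 at −2.32, Inppl1 at −2.21 and Ccnd3 at −2.20. Inppl1 (16.7 ± 7.06 normalised counts in 1/8) and Ccnd3 (41.8 ± 3.90) met that minimum through their higher libraries. The largest increases were Eif4e at 2.19, Prkaa1 at 1.58, Rheb, the target of the TSC complex, at 1.48 and Pik3r3 at 1.37. Exons of Pik3r3 share 1289 bp with a gene on the same strand, Inppl1 shares 1204 bp with an antisense gene and Ccnd3 361 bp with Bysl, so their counts carry the same limit. Cdkn1c, Foxo1 and Eif4e were thus called in opposite directions at 18 against 10 cycles and in 1/8 against whole oocytes, 2 comparisons that share the 18-cycle libraries. Scaled by ERCC, edgeR called 52, 62 and 71 of the 74 lower in 1/2, 1/4 and 1/8, and 0 higher, against 52.0%, 69.7% and 87.5% of all genes lower. The largest ERCC decreases were Ccnd2 (−3.70), Eif4ebp2 (−3.67), Ccnd3 (−3.46) and Bad (−3.37) in 1/2, and Foxo1 (−5.003), Eif4ebp1 (−4.98), Ulk1 (−4.27) and Gsk3a (−4.20) in 1/4. In 1/8 they were Eif4ebp1 (−8.57), Cdkn1c (−7.85), Ccnd3 (−7.25) and Inppl1 (−7.16). All of these lay below 50 normalised counts in 1/8. Also below 50 were Bad in 1/2 (34.25) and Eif4ebp1 (8.49), Gsk3a (34.6) and Ulk1 (49.9) in 1/4. Genes below 50 met the minimum mean of 50 through their higher libraries. In 1/8 Eif4ebp1 had 1.04 ± 1.25, against 262 ± 265 in whole oocytes, and Inppl1 2.92 ± 1.42 against 454 ± 167. The size of such decreases is therefore uncertain. Exons of Bad share 524 bp with Gpr137, Gsk3a 820 bp with an antisense gene, and Ccnd2 also overlaps antisense genes. Their counts carry the same limit as above.

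RNA levels do not report phosphorylation, complex assembly or the place of a protein, and none of these was measured. Each group has 2 libraries, from oocytes of 1 female. Rptor in 1/8 rested on as few as 17 counts. Depth, oocyte and preparation change together with cycle number, and the whole oocytes at 18 cycles carry all fraction comparisons. The few ERCC counts of those libraries, 1611 and 1474, limit the ERCC scale. No unique molecular identifiers are stated, so copies made by amplification cannot be told from separate molecules. The cause of any difference was not tested.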

How the data were processed

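The authors deposited unnormalised read counts per Ensembl gene and ERCC molecule for 12 libraries of GV oocytes. Per the labels and the processing notes, reads were trimmed with cutadapt 2.5, checked with FastQC 0.11.8, aligned with STAR 2.7.2a to GRCm38 plus ERCC sequences, handled with SAMtools 1.9 and counted with HTSeq 0.9.1. The study names default counting settings, which take 1 strand, but the share of reads on no feature fits counting without strand. Symbols, positions and exon lengths came from GENCODE M21, which annotates 55480 of 55573 genes. Reads on no feature (6.90% to 10.8%) and ambiguous reads (2.64% to 4.54%) stayed out of all totals. CPM was computed over gene counts, and CPM per kb over the summed exon length. Fits used edgeR 4.0.16 in R 4.3.3 with quasi-likelihood tests and BH adjusted p under 0.01, and left out genes that did not reach 5 counts in 2 or more of the fitted libraries. The cycle fit held 6 whole oocytes (17532 genes) and the fraction fit 8 libraries at 18 cycles (14788 genes). Size factors were median ratios over genes or, for the fractions, also over ERCC molecules.

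The 9 genes are described in full. Of 83 other pathway genes, the 4 with the largest change in each direction among those called with a mean of at least 50 normalised counts are named. Genes most like Foxo3 and Mtor are the 3 with the highest Pearson r of log2(CPM + 1) among genes with a mean of at least 10 CPM. The genes and lists were chosen with earlier results of these data known. Alternatives were DESeq2 1.42.0, TMM, ERCC size factors, total ERCC counts, no filter, the replicate number as a block, each library left out in turn, whole oocytes at 10 cycles as the reference, other CPM denominators and other likeness scores.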

Additional observations from a re-analysis of the deposited data

How the results depend on the processing

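Of the log2 fold changes of the 9 genes under all alternatives, 805 kept their direction and their side of the threshold, 48 reversed, 17 kept direction but gained a call and 30 kept direction but lost it. These labels do not describe the size of the change. Unless stated, the cause was not tested.

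With DESeq2, 2 of the 9 genes were called lower and 1 higher at 18 against 10 cycles, and the same counts, 2 and 1, came without the filter. Over all genes DESeq2 called 2432 lower and 2732 higher, and the fit without the filter 2673 and 2703. With TMM 2 of the 9 were lower at 18 against 10 cycles, against 2158 of all genes lower and 1973 higher. Akt1 was at −0.0431 in that fit, and Cdkn1b in 1/8 with TMM was at 0.0533. With ERCC size factors at 18 against 10 cycles, 0 were lower and 8 higher, with Tsc1 at 1.40, Mtor at 1.93 and Pik3ca at 0.91, all reversed.

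With the replicate block, edgeR called 2 of the 9 lower and 1 higher at 18 against 10 cycles, and no other count of the 9 moved. The added calls were Tsc1 and Rptor, and 2107 of all genes were lower and 2272 higher in that fit. The labels give only a shared number. Same-numbered libraries correlated at −0.171 (10 and 14 cycles), 0.220 (10 and 18) and −0.12 (14 and 18), and between −0.0396 and 0.038 among the groups of the fraction fit. Over all genes the replicate block gave 36 lower and 37 higher in 1/2 and 105 and 21 in 1/4 on the median ratio scale.

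With whole oocytes at 10 cycles as the reference and median ratios, 1/2 had 2 of the 9 lower (Tsc1 and Pik3ca), with Foxo3 at 0.23, Rptor at 0.24 and Pdpk1 at 0.0336. The calls over all genes on this reference are given below. In 1/4 Tsc1 was at −0.57, Rptor at 1.05, Pdpk1 at 0.29, Pik3ca at −1.11 and Cdkn1b at 0.26. In 1/8 0 were lower, with Tsc1 at −0.70, Pdpk1 at 0.0057, Pik3ca at −0.47 and Cdkn1b at 0.26. On the ERCC scale with that reference, 1/2 had 0 lower, with Foxo3 at 0.40, Rptor at 0.46, Pdpk1 at 0.20, Akt1 at 0.55 and Cdkn1b at 0.77, and 1/4 had 1 lower, with Foxo3 at 0.14 and Rptor at 0.49. In 1/8 on the ERCC scale all 9 kept a negative log2 fold change under all 13 alternatives. This is not particular to the 9, as the main edgeR fit called 87.5% of all genes lower there. The median log2 fold change of all genes in that comparison ranged from −5.25 to −4.26 with 1 library left out.

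In the fits that leave out 1 library each, a lone library was assumed to vary like the other groups. At 14 against 10 cycles Tsc1 ranged from −0.0261 to 0.53, Tsc2 from −0.0218 to 0.52, Mtor from −0.22 to 0.39 and Pdpk1 from −0.19 to 0.0763. At 18 against 10 cycles 0 to 1 of the 9 were lower and 0 to 1 higher, with Tsc2 from −0.12 to 0.43 and Akt1 from −0.48 to 0.41. In 1/2 Foxo3 ranged from −0.52 to 0.0625, Akt1 from −0.0625 to 0.83, Pik3ca from −0.32 to 0.21 and Cdkn1b from −0.0306 to 0.51. In 1/4 Rptor ranged from −0.71 to 0.20, Pdpk1 from −0.55 to 0.24, Akt1 from −0.61 to 0.29, Pik3ca from −0.12 to 0.39 and Cdkn1b from −0.30 to 0.23. In 1/8 0 to 1 were lower, with Tsc1 from −0.0496 to 0.41, Mtor from −0.30 to 0.0646, Akt1 from −0.61 to 0.29 and Cdkn1b from −0.31 to 0.23. In 1/2 on the ERCC scale 5 to 9 were lower.

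Over all genes at 18 against 10 cycles, 1898 were lower and 2155 higher; this became 0 and 8348 with ERCC size factors, and 688 to 1827 and 928 to 2180 with 1 library left out. In 1/2 with median ratios, 6 and 12 became 49 and 102 with DESeq2, 120 and 98 without the filter, 0 and 1 with TMM, 977 and 1521 against 10 cycles, and 0 to 29 and 0 to 24 with 1 library left out. In 1/4, 63 and 5 became 170 and 69 with DESeq2, 159 and 46 without the filter, 564 and 921 against 10 cycles, and 0 to 97 and 0 to 9 with 1 library left out. In 1/8, 1285 and 1044 became 0 and 0 against 10 cycles, and 689 to 1189 and 287 to 957 with 1 library left out. On the ERCC scale against 10 cycles, 7697 and 0 became 266 and 1161 in 1/2, and 10301 and 0 became 902 and 144 in 1/4. With 1 library left out, 1930 to 8908 were lower in 1/2 on the ERCC scale. At 14 against 10 cycles DESeq2 called 1 and 1, and edgeR without the filter 7 and 2.

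Of the group mean CPM values, 67 moved by at least the SD of their 2 libraries under other denominators, and 41 did not. Counting reads on no feature and ambiguous reads in the denominator lowers every CPM, and leaving out the most abundant genes raises it. Whether a value moved thus depends on how close its 2 libraries lay. With Spearman, 1 of the 3 genes most like Foxo3 and 1 of the 3 most like Mtor stayed. Depth limits the genes with few counts, the lowest being 17 for Rptor in replicate 2 of 1/8.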

Other observations

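Relatives of the 9 genes differed in level per kilobase. Among the catalytic PI3K subunits, Pik3cd averaged 101 CPM per kb over the 12 libraries, Pik3ca 5.45, Pik3cb 3.48 and Pik3cg 0.0097. Group means of Pik3cd (± SD, n = 2) were 145 ± 1.74 CPM per kb at 10 cycles, 146 ± 29.4 at 14 and 65.6 ± 20.8 at 18 in whole oocytes, and 59.2 ± 3.79 (1/2), 82.6 ± 8.24 (1/4) and 109.7 ± 20.2 (1/8) in the fractions. Among FOXO factors, Foxo3 averaged 92.8 CPM per kb, Foxo1 87.0, Foxo6 0.718 and Foxo4 0.0645. The Foxo1 mean is carried by the whole oocytes at 18 cycles: its group means were 53.9 ± 6.98 CPM per kb at 10 cycles, 45.1 ± 4.62 at 14 and 230.3 ± 113 at 18, where Foxo3 had 87.2, 81.5 and 96.9, and in the fractions 90.4 ± 41.3 (1/2), 48.3 ± 1.11 (1/4) and 53.9 ± 0.91 (1/8). Of the subunits that define the 2 mTOR complexes, Rictor had group means of 9.15 CPM per kb (10 cycles), 8.13 (14), 3.21 (18), 3.06 (1/2), 4.32 (1/4) and 6.26 (1/8), and Rptor 1.72, 2.603, 3.35, 1.71, 3.21 and 1.13. The receptor gene Kit averaged 51.4 CPM per kb. These genes were chosen after their values were seen.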
